A study of Mus musculus with 2 samples.

Results

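The cells described here are the monocyte-like cells of mouse synovium, the soft tissue that lines the joint, as they were found by a gate on UMI counts (unique molecular identifiers, which count single RNA molecules) in 2 single-cell libraries. Barcodes entered with 1000 UMIs or more, 500 genes or more and a mitochondrial share of no more than 10%. It was gated by 7 conditions: at least 5 UMIs of Lyz2, at least 3 UMIs of Ly6c2, Ccr2 and Plac8 together, at most 4 of C1qa and C1qb together, S100a8 and S100a9 under 1% of its UMIs, at most 2 of Cd209a, at most 2 of Elane and Mpo together, and Col1a1, Col1a2 and Col3a1 under 0.5% of its UMIs. The gate held 132 of 10946 kept cells, 79 of 7075 in the control library and 53 of 3871 in the library labelled MMS.

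Both libraries were made from wild-type mice, each from the pooled synovium of 20 knees, and the protocol in the labels names no sort. One group is labelled control, with no treatment, age or sex given. The other group is labelled MMS and D14, and the labels used here do not spell out what MMS stands for. The labels name goblet cells as the cell type of both libraries, which is not the identity of the cells described here. There was 1 library per group, so each difference is between these libraries, no test between the groups was possible, and every interval covers counting error only.

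Monocytes are made in the bone marrow, circulate in blood and enter tissue. In the mouse, classical monocytes carry the surface protein Ly6C, encoded by Ly6c2, and follow the chemokine CCL2 through its receptor CCR2. Non-classical monocytes lose Ly6C, depend on the transcription factor Nr4a1 and patrol the vessel wall through CX3CR1. Tissue macrophages of the synovium carry complement C1q, while dendritic cells present antigen on MHC class II molecules, and the type 1 dendritic cells among them carry XCR1 and CLEC9A.

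The gate let in cells of differing make-up, some with class II genes and some with a set of secreted inflammatory proteins. Stretches of 4 of their promoters are shown because a short motif in each can be read directly. They come from RefSeq (GRCm38.p6), end at the base before the annotated start and run 5′ to 3′ along the gene's strand. In the promoters of H2-Aa and H2-Eb1, the alpha chain of I-A and the beta chain of I-E, the capitals mark the Y box, CTGATTGG, an element of class II promoters. H2-Aa lies on the minus strand (chr17:34287824-34287933) and H2-Eb1 on the plus strand (chr17:34305757-34305866).
H2-Aa: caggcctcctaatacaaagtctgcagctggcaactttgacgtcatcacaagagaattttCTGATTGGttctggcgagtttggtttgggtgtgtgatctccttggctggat
H2-Eb1: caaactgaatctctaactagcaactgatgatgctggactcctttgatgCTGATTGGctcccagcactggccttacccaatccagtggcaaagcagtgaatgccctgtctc
In the promoters of Saa3, an acute-phase apolipoprotein, and Mmp8, a neutrophil collagenase, the capitals mark a match to TTGCNNAA, letters of the kind that C/EBP factors bind, read on either strand. Saa3 lies on the minus strand (chr7:46715677-46715786) and Mmp8 on the plus strand (chr9:7558319-7558428).
Saa3: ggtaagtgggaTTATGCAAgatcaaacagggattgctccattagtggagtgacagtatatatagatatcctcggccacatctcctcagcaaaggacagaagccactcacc
Mmp8: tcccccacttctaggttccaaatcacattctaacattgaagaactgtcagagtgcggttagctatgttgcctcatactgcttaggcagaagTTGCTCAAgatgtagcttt
In the 250 bases before the start, the Y box letters were found on either strand in 3.83% of all 32851 promoters of the table and in 4 of 11 matched genes of the list for class II and antigen presentation, H2-Aa, H2-Eb1, H2-Oa and Tap1. The letters TTGCNNAA were found in 9.56% of all promoters, in 5 of the 8 matched genes among the 12 that were highest in MMS (Gfpt2, Mmp8, Rasl11a, Saa3 and Slpi), in 4 of 15 matched genes of the classical monocyte list (Clec4e, Fcnb, Gda and Mgst1), and in 3 of the 9 matched genes among the 12 that were highest in control (F2rl2, Lyz1 and Retnla). Chil3, the gene with the most UMIs among the 12 of MMS, had no match, and Gfpt2 and Rasl11a were seen almost entirely in 3 MMS cells described below. A match describes the letters and is not a binding site shown here.

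The genes of the gate itself show that the label monocyte fitted the cells in part. These values chose the cells and are given as a description. Ly6c2, the Ly6C antigen of classical monocytes (GRCm38, chr15:75108158-75111970), was seen in 9 of 79 control cells and in 33 of 53 MMS cells. Levels are given as CPM, UMIs scaled by the total of the cells summed, and the summed level of Ly6c2 was 92.6 CPM in control and 556 CPM in MMS. Ly6c2 has a near-identical neighbour, Ly6c1, and Lyz2 has Lyz1, so reads could be split between the copies and those levels are uncertain to that extent. In the endothelial cells described below, Ly6c1 had 20208 UMIs in control and 14082 in MMS, and Ly6c2 had 11 and 9. The split within the gated cells was not tested. Plac8, a small cysteine-rich protein of monocytes and granulocytes (chr5:100553725-100572245), was seen in 15 control and 39 MMS cells, at 352 and 1390 CPM. Ccr2, the receptor for CCL2 (chr9:124101950-124113557), was seen in 79 of 79 control and 51 of 53 MMS cells, at 846 and 1390 CPM. Lyz2, the lysozyme of myeloid cells (chr10:117277331-117282321), ran from 5 to 744 UMIs per control cell with a median of 188, and from 5 to 482 per MMS cell with a median of 183.

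In 64 of 79 control cells (81.0%, exact Clopper-Pearson 95% interval 70.6 to 89.0) the gate was passed on Ccr2 alone, with no UMI of Ly6c2 or Plac8. This was so for 14 of 53 MMS cells (26.4%, 15.3 to 40.3). Cells with at least 3 UMIs of Ly6c2 and Plac8 together are called the Ly6c2-Plac8 side below, and the others the Ccr2 side. That division was added after the values had been seen. The Ly6c2-Plac8 side held 13 control and 38 MMS cells, 0.184% (0.0979 to 0.314) and 0.982% (0.696 to 1.34) of all kept cells. Its median depth was 12632 UMIs in control and 15462.5 in MMS, and that of the Ccr2 side was 19097 and 8731 UMIs.

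In control, 1.12% (0.885 to 1.39) of kept cells were gated, and in MMS 1.37% (1.03 to 1.79). Of the cells with at least 5 UMIs of Lyz2 the shares were 5.13% (4.08 to 6.35) and 5.6% (4.22 to 7.26). Of the cells with a UMI of Ptprc, the leukocyte antigen CD45, 79 of 1508 control cells (5.24%, 4.17 to 6.49) and 50 of 1016 MMS cells (4.92%, 3.67 to 6.44) were gated, so the order of the libraries depended on the denominator. The intervals overlap on all 3 counts. The share depended on the condition for Cd209a, a lectin of dendritic cells, which removed 169 control cells and 15 MMS cells: with that condition left out the gate held 242 control cells (3.42%) and 68 MMS cells (1.76%), and the direction was the opposite one. The condition for S100a8 and S100a9 removed 0 control and 231 MMS cells. The median depth of a gated cell was 17918 UMIs in control and 15180 in MMS, and the gated cells together held 1393405 and 839346 UMIs.

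Some cells lay close to the limits of the gate, more of them in control. With 3 or 4 UMIs of Ly6c2, Ccr2 and Plac8 together there were 6 control and 6 MMS cells just inside, and with 1 or 2 there were 13 control cells and 1 MMS cell just outside that met every other condition. Cd209a had 13 control and 4 MMS cells with 1 or 2 UMIs just inside, and 10 control cells and 1 MMS cell with 3 or 4 UMIs just outside. For S100a8 and S100a9, 4 MMS cells lay between 0.5% and 1% of UMIs and 2 between 1% and 2%, with 0 control cells in either range.

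As a measure of free RNA, the gate genes were counted in cells that should lack them. In the endothelial gate (cells with at least 5 UMIs of Pecam1 and Cdh5 together, none of Ptprc, under 5 of Lyz2 and little collagen), Ly6c2 was at 1.2 CPM in control and 1.0 CPM in MMS, and Ccr2 at 0.79 and 0.56 CPM. When cells were thinned to 2000 UMIs, Ly6c2 was seen in 7 of 79 gated cells in control (8.86%) and 17 of 51 in MMS (33.3%), against 0.259% of 1543 and 0.139% of 721 cells of the endothelial gate. This left out 0 control and 2 MMS gated cells, and 148 and 27 endothelial cells, that were shallower. Without thinning these shares were 11.4% and 62.3% of gated cells, and 0.650% and 1.20% in the endothelial gate.

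The class II genes parted the sides of the gate within each library. H2-Ab1, the beta chain of I-A (chr17:34257689-34269419), ran from 0 to 20330 CPM per control cell of the Ccr2 side with a median of 9207, and from 48.8 to 13740 CPM per MMS cell with a median of 9102. At least 1000 CPM was reached by 65 of 66 control cells and 14 of 15 MMS cells there. On the Ly6c2-Plac8 side 6 of 13 control cells and 31 of 38 MMS cells had 0 UMIs of H2-Ab1, and 4 control and 3 MMS cells reached 1000 CPM. The plot of each cell's monocyte genes against H2-Ab1 shows both libraries in the same 2 places, with few cells between them.

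**Figure D1:**
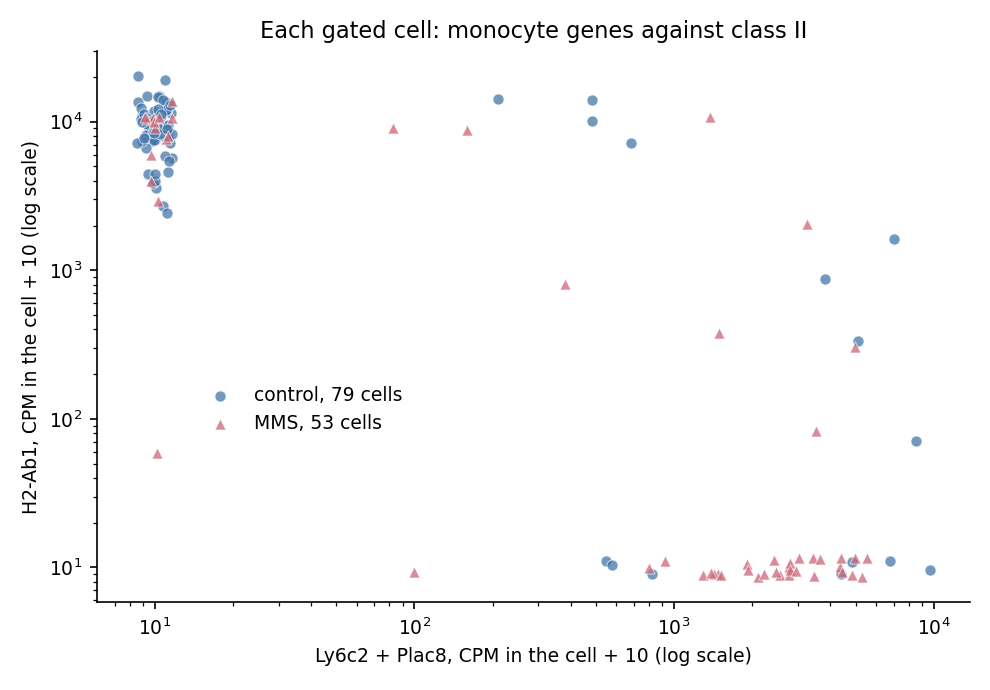
Each point is 1 gated cell, 79 control (circles) and 53 MMS (triangles). The horizontal axis is the sum of Ly6c2 and Plac8 and the vertical axis is H2-Ab1, both in CPM of that cell plus 10 on log scales; cells at 0 are spread slightly around 10 so that they can be seen. Most control cells lie at the upper left, with class II and no Ly6c2 or Plac8, and most MMS cells at the lower right.

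When the gated cells were clustered by themselves, without the genes of the gate, they fell into 6 clusters. Clusters are described by their leading genes, and every gene of the clustered cells counts as used, so the levels below are a description. They are numbered and given no cell type name. The sides differed in cluster make-up between the libraries: of the Ly6c2-Plac8 side, 9 of 13 control cells and 13 of 38 MMS cells lay in cluster 4, and 0 control and 19 MMS cells in cluster 6. Of the Ccr2 side, 31 of 66 control cells and 4 of 15 MMS cells lay in cluster 1, and 15 control and 2 MMS cells in cluster 2.

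Cluster 6 held 0 control cells (0 of 79, where 3 cells would be 3.80% and the exact upper bound is 4.56%) and 19 of 53 MMS cells (35.8%, 23.1 to 50.2). It was led by Lcn2, Wfdc21, Saa3, Mmp8, Slpi, Lrg1, Chil3, Cd177, Fpr2 and Vcan, a mix of secreted antimicrobial and acute-phase proteins with genes of classical monocytes. All 19 of its cells lay on the Ly6c2-Plac8 side. Chil3, a chitinase-like protein abundant in classical monocytes, was at 7984 CPM in it, Saa3 at 3444 CPM and Lcn2, an iron-binding protein of granules, at 623 CPM. H2-Ab1 was at 13.7 CPM and H2-Aa at 0.

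Cluster 4 held 10 control and 13 MMS cells (12.7% and 24.5%). Its leading genes were Ace, Ldlrad3, Gngt2, Smpdl3b, Adgre4, Nxpe4, Abi3, Irf7, Itgal and Fcgr4, among which Ace, Adgre4 and Itgal are known from non-classical monocytes. Its cells still had Ly6c2, with 122 UMIs in control and 68 in MMS, and 22 of its 23 cells lay on the Ly6c2-Plac8 side. Ace was seen with 30 control and 25 MMS UMIs in this cluster, while its level in cluster 6 was 0. Saa3 had 0 control and 207 MMS UMIs within it. The MMS UMIs all lay in cells with 128, 61 and 18 of them, and the other MMS cells of the cluster had none.

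Cluster 1 held 31 control and 6 MMS cells (39.2%, 28.4 to 50.9, and 11.3%, 4.27 to 23.0). Retnla, a resistin-like protein of alternatively activated macrophages, was at 19883 CPM in it, with Lyz1, the second mouse lysozyme, at 3658 CPM, and Fcrls, an Fc receptor-like protein, at 1185 CPM. Its first-ranked genes, Prg4 and Dcn, are fibroblast genes, and 1 of its control cells and 2 of its MMS cells had at least 1% of their UMIs in fibroblast markers. Of its Prg4 UMIs, 166 were in the 31 control cells and 6398 in the 6 MMS cells.

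Cluster 2 held 15 control and 2 MMS cells (19.0%, 11.0 to 29.4, and 3.77%, 0.46 to 13). It was led by Kit, Fcrla, Itgae, Gpr141b, Cxcr3, Kmo, Clec9a, Dbn1, Xcr1 and Cadm1, which include the defining genes of type 1 dendritic cells. Xcr1, the receptor for XCL1, was at 216 CPM, Flt3, the growth factor receptor of dendritic cells, at 169 CPM, and Irf8, the transcription factor that type 1 dendritic cells need, at 1594 CPM. Ly6c2 and Plac8 were both at 0 in its cells, and Csf1r, the receptor for CSF1, was at 3.9 CPM. By their defining genes these cells went against the label monocyte.

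Cluster 3, led by Pclaf, Cenpf, Top2a and Cdk1, all genes of DNA replication or mitosis, held 8 control and 5 MMS cells. Xcr1 was also seen there, with 9 control UMIs in 2 cells and 17 MMS UMIs in 1 cell, as was Retnla, with 1762 control and 48 MMS UMIs. Cluster 5, led by Rasgef1b, Frmd4b, Clec10a and Tnf, held 15 control and 8 MMS cells. Clec10a is a lectin of dendritic cells and macrophages. Il1b, the inflammatory cytokine, was at 2070 CPM in cluster 5 and 2044 CPM in cluster 6, and H2-Ab1 was at 8467 CPM in cluster 5.

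**Figure D2:**
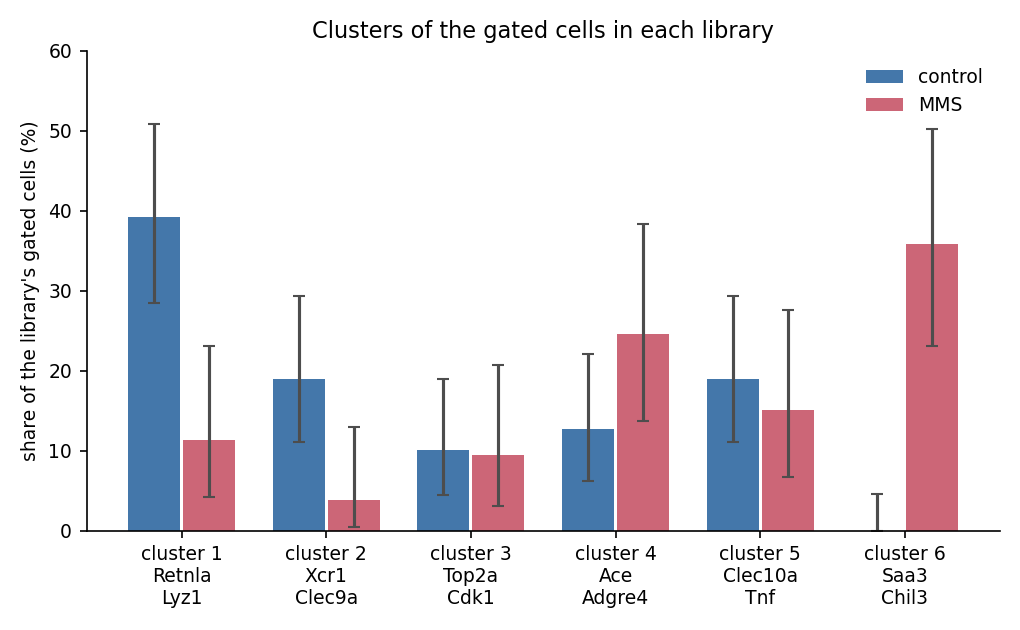
The bars give the share of each library's gated cells in each cluster (79 control and 53 MMS cells in all), with exact Clopper-Pearson 95% intervals that cover counting error only; 2 of the leading genes are written under each cluster. Cluster 1 is larger in control, cluster 6 is seen in MMS alone, and the intervals of clusters 2, 3, 4 and 5 overlap between the libraries.

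**Figure D3:**
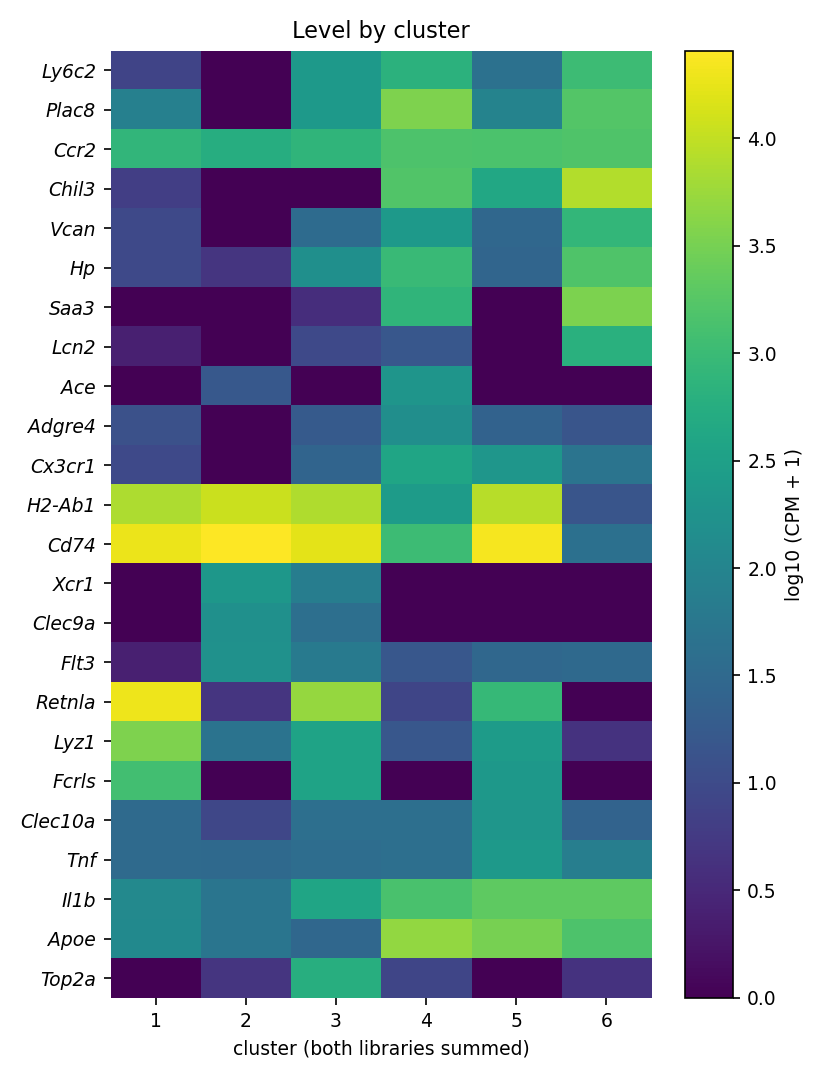
The colour gives log10 of CPM plus 1 for 24 genes (rows) in the 6 clusters (columns), with both libraries summed. Clusters 4 and 6 have Ly6c2 and Plac8 with little H2-Ab1 and Cd74. Clusters 1, 2 and 5 have H2-Ab1 and Cd74, and cluster 2 has no Ly6c2 or Plac8. Clusters 1 and 5 have some of both, with 2 of 37 and 6 of 23 cells on the Ly6c2-Plac8 side. Xcr1 and Clec9a are confined to clusters 2 and 3 among the 6.

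Counts of single genes per cell describe the same cells. At least 2 UMIs of Xcr1 and Clec9a together were seen in 18 of 79 control cells (22.8%, 14.1 to 33.6) and 3 of 53 MMS cells (5.66%, 1.18 to 15.7). At least 5 UMIs of Retnla were seen in 35 control cells (44.3%) and 4 MMS cells (7.55%), and at least 5 of Chil3 in 3 control cells (3.80%) and 31 MMS cells (58.5%). No cell had both Retnla and Chil3 at that level, 0 of 79 and 0 of 53, with exact upper bounds of 4.56% and 6.72%. Mki67 and Top2a, genes of dividing cells, reached 2 UMIs together in 10 control cells (12.7%, 6.24 to 22.0) and 6 MMS cells (11.3%, 4.27 to 23.0).

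Between the libraries, 9621 genes with at least 10 UMIs in the gated cells were compared as the ratio of summed CPM, MMS over control. Of these, 1123 (11.7%) were at least 2-fold higher in MMS and 881 (9.16%) at least 2-fold lower, with a median log2 ratio of 0.10. By any amount, 56.6% were higher and 43.4% lower. The counts given below for gene lists over all gated cells are to be read beside these shares of all genes. All ratios below are log2 ratios of MMS over control unless another scale is named, and each has an exact conditional binomial 95% interval. Because the mix of clusters differed between the libraries, each ratio, over all gated cells or within a side, holds that difference in mix as well as any difference within a cluster.

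Among the 12 genes highest in MMS, 6 were spread over many cells: Saa3, Wfdc21, Lrg1, Chil3, Slpi and Mmp8. Saa3 had 0 UMIs in the 79 control cells and 1214 in MMS, from 19 cells, with a highest cell of 12780 CPM and a median of 0. Against a floor of 3 counts put in place of 0 that is 672-fold higher, and the interval of the log2 ratio has a lower end of 9.09. Wfdc21, a secreted protein of the whey acidic family, had 0 control and 458 MMS UMIs in 19 cells. Against the same floor it was 253-fold higher, with a lower end of 7.68. Lrg1, a leucine-rich glycoprotein of the acute phase, had 0 control UMIs and 227 in 24 MMS cells. It was 126-fold higher against the floor, with a lower end of 6.66. Each of these had 0 UMIs in every gated control cell and was seen in fewer MMS cells than not. The S100-high cells are the kept cells with at least 1% of UMIs in S100a8 and S100a9. In the S100-high cells of MMS, Wfdc21 was higher than in the gated cells (5279 against 546 CPM) and so was Lrg1 (1125 against 270 CPM). Lrg1 was also higher in the endothelial gate of MMS, at 542 CPM, and was at 78.0 CPM in that of control.

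Chil3 was seen in 8 control cells and 36 MMS cells, with 81 and 2851 UMIs. Its per-cell level in control had a median of 0 and a highest value of 4042 CPM, and in MMS a median of 1112 and a highest value of 19160 CPM. The log2 ratio was 5.87 (5.55 to 6.21). Slpi, an inhibitor of leukocyte proteases, had 9 UMIs in 3 control cells and 221 in 21 MMS cells (5.35, 4.40 to 6.50). Mmp8 had 15 UMIs in 3 control cells and 281 in 30 MMS cells, and its ratio was 4.96 (4.21 to 5.82). Both were higher in the S100-high cells of MMS, at 1144 CPM for Slpi and 1161 CPM for Mmp8, than in the gated cells.

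The 6 remaining genes of the 12, Htra4, Rasl11a, Igfbp5, Hbegf, Tln2 and Gfpt2, each had over 95% of their MMS UMIs in 3 cells. Among the gated MMS cells, 3 had at least 1% of their UMIs in fibroblast markers, up to 15.3%, and held 96.4% of all fibroblast marker UMIs. The top 3 cells of Htra4, Igfbp5 and Gfpt2 were these 3 cells, and those of Rasl11a, Hbegf and Tln2 included 2 of them. Igfbp5, a binding protein for insulin-like growth factors, had 32 control and 1162 MMS UMIs and a ratio of 5.91. Without the 2 control and 4 MMS cells that had at least 1% fibroblast or erythroid marker UMIs it was -1.10, and the other 5 genes had under 10 UMIs left. Whether these cells are doublets was not tested beyond a doublet caller, which marked 1 gated cell in each library.

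The 12 genes highest in control were Upb1, Dcstamp, Fcrls, Cd226, Lyz1, Ccl17, Retnla, Espn, Ffar4, F2rl2, Slc13a3 and Otof. Retnla had 15857 UMIs in 40 control cells and 281 in 4 MMS cells, and its highest cell was at 78940 CPM in control and 82670 CPM in MMS. The highest MMS cell was a shallow one, with 207 Retnla UMIs of 2504 in all. The ratio over all gated cells was -5.09 (-5.26 to -4.92). Lyz1 had 2771 UMIs in 37 control cells and 42 in 7 MMS cells (-5.31, -5.79 to -4.87). Fcrls had 1024 UMIs in 39 control and 14 in 6 MMS cells (-5.46, -6.34 to -4.71).

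Cd226, an adhesion receptor better known from lymphocytes, had 282 UMIs in 53 control cells and 4 in 4 MMS cells (-5.41, -7.29 to -4.04). Upb1, an enzyme of pyrimidine breakdown, had 159 UMIs in 39 control cells and 1 in MMS (a ratio of -6.58 with an interval of -11.89 to -4.08). Dcstamp, a membrane protein needed for the fusion of osteoclasts, had 90 UMIs in 30 control cells and 1 in MMS (-5.76, -11.08 to -3.25). Ccl17, a chemokine of dendritic cells, had 61 UMIs in 12 control cells and 1 in MMS, and 73.8% of the control UMIs were in 3 cells. In the control cells, 8 of the 12 genes were highest in cluster 1 (Upb1, Fcrls, Cd226, Lyz1, Retnla, Espn, Slc13a3 and Otof), Ffar4 and F2rl2 in cluster 2, and Dcstamp and Ccl17 in cluster 5.

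**Figure D4:**
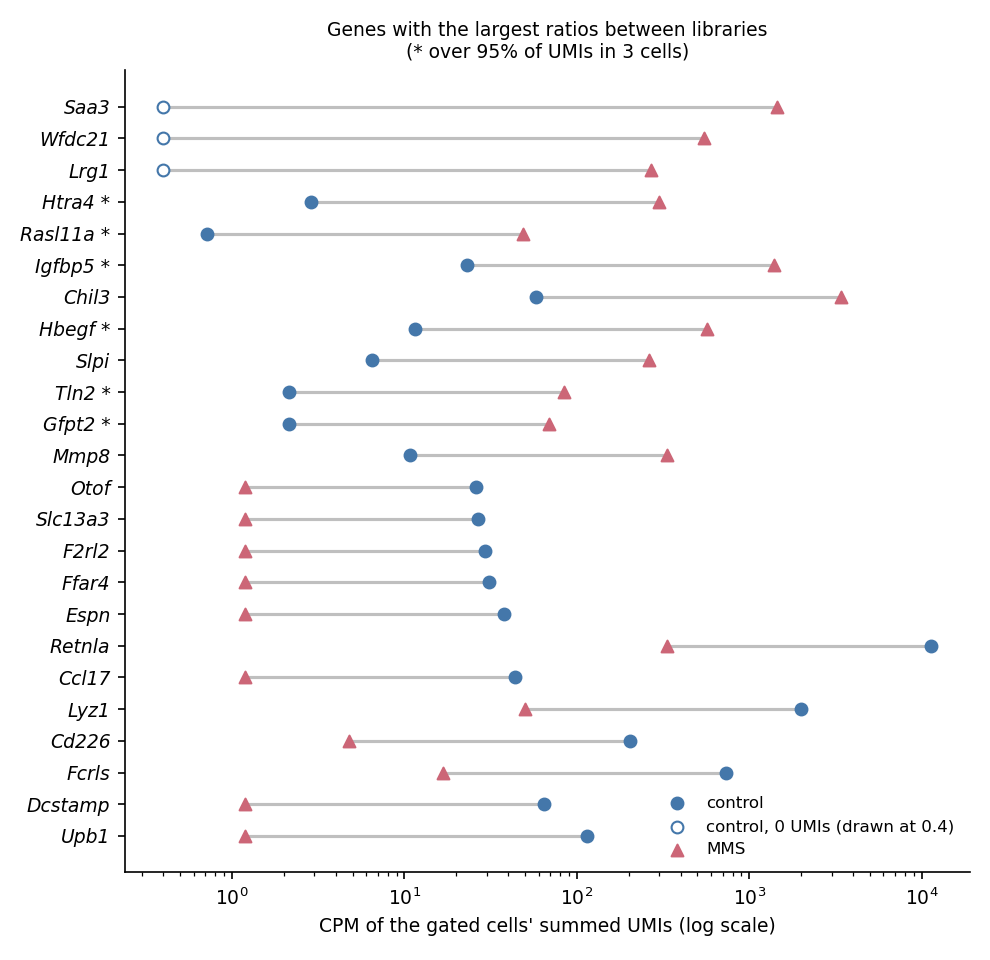
Each row is 1 of the 24 genes with the largest ratios, the 12 highest in MMS above and the 12 highest in control below. The horizontal axis is the CPM of the gated cells' summed UMIs on a log scale, circles for control and triangles for MMS, with open circles for 0 UMIs. Retnla is highest of all in control at 11380 CPM and Chil3 highest in MMS at 3397 CPM, and a star marks genes with over 95% of UMIs in 3 cells.

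The classical monocyte genes were higher in MMS. Of 18 compared members of that list, 18 were higher, 13 at least 2-fold, and 0 were at least 2-fold lower, with a median log2 ratio of 2.48 against 0.10 over all genes. Hp, the haemoglobin-binding haptoglobin, had 71 UMIs in 14 control cells and 726 in 36 MMS cells (4.08, 3.73 to 4.46). Vcan, the matrix proteoglycan versican, had 36 and 294 UMIs in 7 and 34 cells (3.76, 3.26 to 4.30). Thbs1, thrombospondin, had 41 and 361 (3.87, 3.40 to 4.37). The smallest ratio of the list was that of Itgam, the integrin CD11b, at 0.13 (-0.11 to 0.37).

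The list's median was 0.80 on the Ly6c2-Plac8 side, where 8 of 18 members were at least 2-fold higher and 0 lower, beside 16.3% and 6.68% of 7171 genes compared there. On the Ccr2 side it was 0.40, with 5 of 13 higher and 4 lower, beside 11.4% and 11.3% of 8471 genes. Both medians were below that over all gated cells. Chil3 had a ratio of 3.11 (2.79 to 3.45) on the Ly6c2-Plac8 side, from 501 to 4328 CPM. There Ly6c2 itself was at 791 and 724 CPM (-0.13, -0.41 to 0.17). Fn1, fibronectin, was higher in MMS over all gated cells (0.90, 0.83 to 0.96) with 70.8% of its MMS UMIs in 3 cells, and lower (-0.58, -0.68 to -0.48) without the cells of high fibroblast or erythroid content.

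The non-classical list was mixed. Of its 18 compared members 6 were at least 2-fold higher and 4 at least 2-fold lower, with a median of 0.48. Cx3cr1, the fractalkine receptor, had 81 control and 125 MMS UMIs (1.36, 0.94 to 1.78), and Nr4a1 had 572 and 517 (0.59, 0.41 to 0.76). Itgax, the integrin CD11c, was lower with 158 and 16 UMIs (-2.57, -3.41 to -1.83), as was Cd36, a scavenger receptor for lipids, with 258 and 22 (-2.82, -3.52 to -2.19). On the Ly6c2-Plac8 side the median was -0.89, with 0 of 18 at least 2-fold higher and 8 lower, beside 16.3% and 6.68% of all genes there. Of that side's cells, 9 of 13 in control and 13 of 38 in MMS were of cluster 4, which Ace leads. There Ace, the angiotensin-converting enzyme, was at 185 CPM in control and 38.8 CPM in MMS (-2.26, -3.08 to -1.44), and Spn, the sialophorin CD43, at 124 and 41.9 CPM (-1.56, -2.45 to -0.65).

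The class II genes were lower in MMS over all gated cells. Of 16 compared genes of class II and antigen presentation, 7 were at least 2-fold lower, 0 were at least 2-fold higher and the median was -0.84. H2-Ab1 was seen in 72 of 79 control cells with a median of 8372 CPM, and in 22 of 53 MMS cells with a median of 0 (ratio -1.73, -1.80 to -1.66). Cd74, the invariant chain, had 29197 and 4702 UMIs (-1.90, -1.95 to -1.86). H2-DMb1, a chain of the peptide exchanger, had 1302 and 195 (-2.01, -2.23 to -1.79). Ctss, the protease that trims the invariant chain, was not lower (0.24, 0.11 to 0.36), nor was B2m, the light chain of class I (0.19, 0.07 to 0.31).

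Within the sides, the class II levels of the libraries were close on the Ccr2 side and apart on the Ly6c2-Plac8 side. On the Ccr2 side H2-Ab1 was at 9064 CPM in control and 9106 CPM in MMS (0.01, -0.07 to 0.08), and the list's median was 0.06. On the Ly6c2-Plac8 side H2-Ab1 was at 3152 and 540 CPM (-2.55, -2.75 to -2.35). There 10 of 14 list members were at least 2-fold lower, beside 6.68% of 7171 genes, with a median of -1.32. The control value there rests on 4 of 13 cells with at least 1000 CPM, and 19 of the 38 MMS cells were of cluster 6. The difference between the sides was not tested.

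Receptors that draw myeloid cells to inflammation were mostly higher in MMS. Of 15 compared receptors for chemokines, formyl peptides, complement fragments and colony-stimulating factors, 8 were at least 2-fold higher and 1 lower, with a median of 1.20. The median was 0.47 on the Ly6c2-Plac8 side, with 4 of 15 at least 2-fold higher and 1 lower, beside 16.3% and 6.68% of all genes there. It was 0.44 on the Ccr2 side, with 5 of 11 higher and 1 lower, beside 11.4% and 11.3%. Over all gated cells Csf3r, the receptor for G-CSF, had 13 UMIs in 9 control cells and 53 in 26 MMS cells (2.76, 1.86 to 3.76). The Ly6c2-Plac8 side held 12 and 52 of these UMIs, and there Csf3r was at 74.2 and 80.7 CPM (0.12, -0.80 to 1.16). C5ar1, the receptor for C5a, had 12 and 50 UMIs over all gated cells (2.79, 1.86 to 3.83) and was at 3.05 (0.47 to 8.40) on that side. Fpr2, a formyl peptide receptor, had 3 and 44 (4.61, 2.96 to 6.94). Csf1r was at 309 and 279 UMIs (0.58, 0.35 to 0.82), and Ltb4r1, a receptor for leukotriene B4, was lower with 320 and 94 (-1.04, -1.38 to -0.70). Ackr3 had 97.6% of its 41 MMS UMIs in 3 cells.

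Pattern recognition genes were higher too over all gated cells. Of 21 compared, 21 were higher, 15 at least 2-fold, with a median of 1.54. Tlr2, the receptor for bacterial lipoproteins, had 57 UMIs in 32 control cells and 239 in 40 MMS cells (2.80, 2.38 to 3.24). Nlrp3, the inflammasome sensor, had 64 and 227 in 31 and 38 cells (2.56, 2.15 to 2.98), and Clec4d, a C-type lectin of monocytes, had 7 and 62 (3.88, 2.75 to 5.25). On the Ly6c2-Plac8 side the median was 0.29, with 4 of 19 at least 2-fold higher and 2 lower. Over the 7171 genes compared there the median was 0.09, with 16.3% higher and 6.68% lower by that much. On the Ccr2 side the list's median was 1.68, with 7 of 12 at least 2-fold higher and 0 lower, beside 11.4% and 11.3% of 8471 genes. There Tlr2 was at 34.9 and 144 CPM (2.04, 1.30 to 2.76).

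Cytokine genes were mixed. Of 20 compared genes of the response to interleukin-1, TNF and NF-kB, 9 were at least 2-fold higher and 1 lower, with a median of 0.61. Il1b had 659 UMIs in 38 control cells and 1270 in 41 MMS cells, with medians of 0 and 803 CPM per cell (1.68, 1.54 to 1.82), while Il1rn, the antagonist of the same receptor, had 62 UMIs in 17 control cells and 5 in 5 MMS cells (-2.90, -4.57 to -1.60). Ier3, an early response gene, had 219 and 889 UMIs (2.75, 2.54 to 2.97), and Tnf had 112 and 46 (-0.55, -1.08 to -0.05). The list's median was 1.09 on the Ly6c2-Plac8 side and -0.04 on the Ccr2 side.

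Of 14 compared chemokines, 4 were at least 2-fold higher and 2 lower, with a median of -0.09. Within the sides the medians were higher. On the Ly6c2-Plac8 side it was 0.88, with 5 of 11 at least 2-fold higher and 0 lower, beside 16.3% and 6.68% of all genes there. On the Ccr2 side it was 1.07, with 7 of 12 higher and 2 lower, beside 11.4% and 11.3%. Cxcl2, a neutrophil chemokine, had 2569 UMIs in 42 control cells and 940 in 26 MMS cells (-0.72, -0.83 to -0.61). It was higher on the Ly6c2-Plac8 side (0.43, 0.16 to 0.70) and lower on the Ccr2 side (-0.90, -1.11 to -0.69). Ccl6 and Ccl9, chemokines of resting myeloid cells, were lower over all gated cells: Ccl6 with 2229 and 455 UMIs (-1.56, -1.71 to -1.42) and Ccl9 with 1398 and 353 (-1.25, -1.43 to -1.08). Ccl3 and Ccl4, chemokines of activated macrophages, were higher over all gated cells. Ccl3 had 17 and 59 UMIs (2.53, 1.73 to 3.40) and Ccl4 had 34 and 87 (2.09, 1.5 to 2.70). On the Ly6c2-Plac8 side, with 13 and 51 UMIs, Ccl3 was at 80.4 and 79.1 CPM (-0.02, -0.92 to 0.98). The Ccr2 side had 4 and 8 UMIs of Ccl3 (3.66, 1.76 to 5.84). Ccl4 was at 1.95 (0.67 to 3.61) and 1.13 (-0.08 to 2.20) on these sides. Ccl2, the ligand of CCR2, was at 472 and 301 UMIs (0.08, -0.13 to 0.29). Ccl5 was seen with 89 UMIs in 1 MMS cell and in 0 control cells. That cell is among the 2 MMS cells with any UMI of the T and NK markers, whose summed level in the MMS gated cells was 113 CPM and in the highest cell 4367 CPM.

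Interferon response genes were close to the median of all genes over all gated cells, with 4 of 17 at least 2-fold higher and 2 lower and a median of 0.10. On the Ly6c2-Plac8 side 12 of 15 were at least 2-fold lower in MMS and 0 higher, with a median of -1.80. Of the 7171 genes compared on that side, 6.68% were lower and 16.3% higher by that much. Ifi27l2a had 404 UMIs in 12 of 13 control cells there and 211 in 24 of 38 MMS cells, at 2497 and 327 CPM (-2.93, -3.18 to -2.69). Bst2, tetherin, had 48 UMIs in 12 control cells and 42 in 21 MMS cells (-2.19, -2.82 to -1.56), and Irf7, the master regulator of type I interferon, had 25 in 7 and 20 in 15 (-2.32, -3.24 to -1.41). Irf7 is among the leading genes of cluster 4, which held 9 of the 13 control and 13 of the 38 MMS cells of this side. The control values rest on 13 cells, of which the 3 highest held 51.0% of the Ifi27l2a UMIs.

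Genes of alternative activation were lower in MMS over all gated cells, with 8 of 14 at least 2-fold lower, 2 higher and a median of -2.08. Besides Retnla and Ccl17 above, Ear2, an eosinophil-associated ribonuclease, had 348 and 31 UMIs (-2.76, -3.34 to -2.23), and Mgl2, a galactose lectin, had 253 and 41 (-1.89, -2.41 to -1.41). Chil3 and Il4ra, the receptor chain for interleukin-4 with 25 and 59 UMIs (1.97, 1.27 to 2.71), were the members at least 2-fold higher. The median was -0.63 over 7 genes on the Ly6c2-Plac8 side, with 3 at least 2-fold higher and 3 lower, beside 16.3% and 6.68% of all genes there. It was -0.34 over 14 on the Ccr2 side, with 4 higher and 5 lower, beside 11.4% and 11.3%. On the Ccr2 side Retnla was at 12873 and 1443 CPM (-3.16, -3.33 to -2.99), where cluster 1, which had the most Retnla, held 31 of 66 control and 4 of 15 MMS cells. The MMS cells of that side with Retnla were shallow, with 207 of 2504, 48 of 2251, 16 of 1771 and 10 of 3441 UMIs. Deeper cells without Retnla thus weighed most in the MMS sum.

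Most of the resident macrophage genes that could be compared were higher in MMS. The gate removes cells with C1q, and 10 of 19 genes of the list had enough UMIs to be compared. Lyve1, Timd4, Folr2, Vsig4, Cbr2, Mertk, Cd5l, Marco and C1qc had too few UMIs. The compared genes included F13a1, which is also in the classical list. Of these, 7 were higher, 6 at least 2-fold, and 2 were at least 2-fold lower, with a median of 1.78. The median was 0.69 over 8 genes on the Ly6c2-Plac8 side and 0.44 over 9 on the Ccr2 side. It was 1.22 over 10 genes without the cells of high fibroblast or erythroid content. Apoe, the lipid carrier, had 464 UMIs in 37 control cells and 2521 in 38 MMS cells, with medians of 0 and 1246 CPM per cell (3.17, 3.03 to 3.32). Trem2, a lipid receptor of macrophages, had 44 and 107 UMIs (2.01, 1.49 to 2.55), and Cd163, the scavenger receptor for haemoglobin, was lower with 128 and 16 (-2.27, -3.12 to -1.51). Apoe was also at 8568 CPM in the C1q-positive myeloid cells of MMS and 4462 CPM in those of control. On the Ccr2 side Apoe was at 127 and 3066 CPM (4.59, 4.33 to 4.85), a larger ratio than over all gated cells.

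Of 17 compared lipid-associated macrophage genes, 4 were at least 2-fold higher and 5 lower, with a median of -0.03. Lpl, lipoprotein lipase, was lower with 1233 and 62 UMIs (-3.58, -3.98 to -3.21), as was Plin2, the coat protein of lipid droplets, with 388 and 88 (-1.41, -1.76 to -1.07). Ctsl, a lysosomal protease, was higher with 49 and 189 (2.68, 2.22 to 3.16). Cd63 was higher over all gated cells (1.98, 1.48 to 2.51) and at 0.0044 without the cells of high fibroblast or erythroid content.

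Of 16 compared Fc receptors and genes of phagocytosis, 5 were at least 2-fold higher and 0 lower, beside 11.7% and 9.16% of all genes. The median was 0.61. On the Ly6c2-Plac8 side it was -0.05, with 2 of 16 at least 2-fold higher and 0 lower, beside 16.3% and 6.68% of all genes there. On the Ccr2 side it was 0.08, with 4 of 15 higher and 2 lower, beside 11.4% and 11.3%. Over all gated cells Fcgr4, an activating Fc receptor of monocytes, had 5 and 44 UMIs (3.87, 2.54 to 5.56). On the Ly6c2-Plac8 side Fcgr4 was at 30.9 and 60.5 CPM (0.97, -0.38 to 2.67). Cybb, the catalytic subunit of the phagocyte oxidase, had 512 and 716 UMIs over all gated cells (1.22, 1.05 to 1.38). Of 12 compared complement genes, 6 were at least 2-fold higher and 2 lower, with a median of 1.42. C3 had 53 UMIs in 23 control cells and 172 in 32 MMS cells (2.43, 1.98 to 2.90), and Cfp, properdin, was lower with 689 and 119 (-1.80, -2.10 to -1.52). Cd55 had 96.1% of its MMS UMIs in 3 cells.

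Of 24 compared growth factors and matrix genes, 11 were at least 2-fold higher and 6 lower, with a median of 0.72. Tgfbi, a matrix protein induced by TGF-beta, had 560 UMIs in 75 control cells and 959 in 50 MMS cells (1.51, 1.35 to 1.66). Ecm1, extracellular matrix protein 1, was lower with 1227 and 82 (-3.17, -3.51 to -2.85), as was Mmp19, a metalloprotease, with 219 and 33 (-2.0, -2.57 to -1.47). Without the cells of high fibroblast or erythroid content 8 of 22 were at least 2-fold higher and 7 lower, beside 9.95% and 10.1% of 9212 genes, and the median was 0.06. Timp1 and Mmp14 had 87.9% and 90.9% of their MMS UMIs in 3 cells.

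The osteoclast list had 10 compared genes, 4 at least 2-fold higher and 1 lower, with a median of 0.79. Dcstamp was the lower one, and Ctsk, the collagen-degrading protease of osteoclasts, had its 52 MMS UMIs entirely in 3 cells. Among 17 adhesion genes 2 were at least 2-fold higher and 3 lower, beside 11.7% and 9.16% of all genes, with a median of -0.28. Itgax, Adam8 and Pecam1 were the lower ones. Of 18 transcription factors, 4 were at least 2-fold higher over all gated cells and 0 lower, among them Maf, Id3 and Cebpb. Cebpb was lower on the Ly6c2-Plac8 side (-0.63, -0.80 to -0.45) and higher on the Ccr2 side (0.45, 0.10 to 0.78). Irf8 was at 520 and 288 UMIs (-0.12, -0.33 to 0.09) over all gated cells, with 25 of 79 control and 42 of 53 MMS cells having a UMI. Within the sides Irf8 was higher in MMS, at 1.61 (0.73 to 2.65) on the Ly6c2-Plac8 side and 0.94 (0.67 to 1.20) on the Ccr2 side.

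Of 19 glycolysis and hypoxia genes 2 were at least 2-fold higher and 1 lower, beside 11.7% and 9.16% of all genes, with a median of 0.47. Of 21 cell-cycle genes 1 was at least 2-fold higher and 1 lower, with a median of -0.27, and the sides differed in direction. On the Ccr2 side 21 of 21 cell-cycle genes were higher in MMS, 9 at least 2-fold, beside 11.4% of 8471 genes, with a median of 0.96. Of that side's cells, 7 of 66 in control and 4 of 15 in MMS were of cluster 3, which such genes lead. These MMS cells included cells of 27022, 28235 and 35329 UMIs, of 194715 on that side, so few deep cells weighed heavily in the sums. On the Ly6c2-Plac8 side 6 of 16 were at least 2-fold lower and 1 higher, beside 6.68% and 16.3% of 7171 genes, with a median of -0.72. Of 14 housekeeping genes 0 were at least 2-fold different, with a median of 0.01.

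Genes that respond to the digestion of tissue were recorded as a check on sample handling. Of 19 immediate early and dissociation genes 1 was at least 2-fold higher and 2 lower, with a median of -0.25. The lower ones were Hspa1a, a heat-shock protein, with 549 UMIs in 57 control cells and 64 in 19 MMS cells (-2.37, -2.77 to -1.99), and Hspa1b with 320 and 22 (-3.13, -3.83 to -2.51). Fos was at 4057 and 2145 UMIs (-0.19, -0.26 to -0.11). The part of handling in the gene differences above was not tested.

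**Figure D5:**
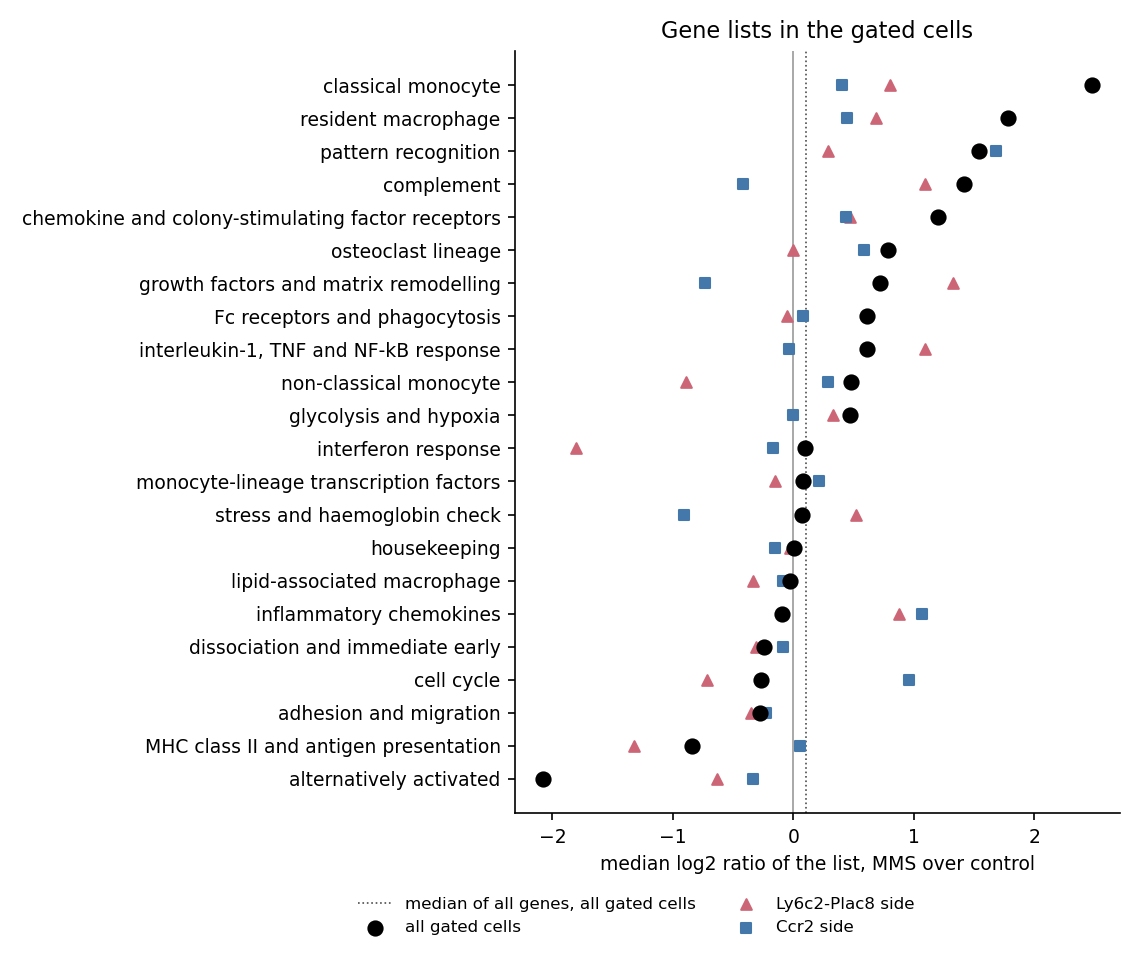
Each row is a gene list and each point its median log2 ratio of MMS over control, over all gated cells (black circles), the Ly6c2-Plac8 side (triangles) and the Ccr2 side (squares); the dotted line is the median of all genes over all gated cells, 0.10. The classical list falls from 2.48 over all gated cells to 0.80 and 0.40 within the sides, the class II list lies at -1.32 and 0.06, and the interferon list at -1.80 and -0.17.

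Markers of other cells varied with the library. The neutrophil list, 12 genes, was at 34.4 CPM in control gated cells with 6 of 12 seen, and at 1557 CPM in MMS with 10 of 12 seen; Ly6g and Camp, which define mature neutrophils and their granules, were at 0 in MMS. The MMS level per cell had a median of 316 CPM and a highest value of 12951 CPM. S100a8 accounted for 807 CPM of it, and its level in the S100-high cells of the same library was 113450 CPM. Saa3, in contrast, was at 1446 CPM in the MMS gated cells, 81.2 CPM in the S100-high cells and 32.4 CPM in the collagen cells (at least 0.5% of UMIs in the 3 collagen genes, no Ptprc), whereas Lcn2 was at 225 CPM in the gated cells and 11682 CPM in the S100-high cells. The part of neutrophil RNA in the levels of Lcn2, Wfdc21 and S100a8 was not tested.

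Ly6c2 and Chil3 were not particular to the gated cells of MMS. The S100-high cells of MMS, which the gate leaves out, had Ly6c2 at 852 CPM and Chil3 at 2875 CPM, beside 556 and 3397 CPM in the gated cells. The Cd209a cells, which have Lyz2 and more than 2 UMIs of Cd209a and are also left out, had Ccr2 at 748 CPM in control and 1323 CPM in MMS, and H2-Ab1 at 12652 and 10586 CPM, with Ly6c2 at 0.84 and 1.9 CPM. The Ccr2 side of the gate thus had class II levels near those of the Cd209a cells, and in both classes Ly6c2 was near 0.

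Macrophage markers were at 567 CPM in control and 979 CPM in MMS, with 13 and 12 of 13 seen, and dendritic cell markers at 456 and 273 CPM, with 10 and 9 of 11 seen. Plasmacytoid dendritic cell markers were at 195 and 191 CPM, with Ccr9, Ly6d, Klk1 and Cox6a2 at 0 in both. Mast cell and basophil markers were at 0 in both libraries, B and plasma cell markers at 2.15 CPM in control and 7.15 CPM in MMS, and Ccr7, a marker of migrating dendritic cells, was at 0 in both. Fibroblast markers had a median of 414 CPM per control cell and 407 CPM per MMS cell, with sums of 962 and 10125 CPM that rest on the few cells named above. Erythroid markers were at 851 and 2012 CPM, and 1 cell in each library held 99.5% and 98.0% of them.

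Set beside the C1q-positive myeloid cells of the same library (1132 control and 543 MMS cells, which have Lyz2 and more than 4 UMIs of C1qa and C1qb), the gated cells differed by the rule's own choice, and the values are a description. The genes most in excess in both libraries included Sept3, Gpr141b, Clec9a, Gpr171, Xcr1, Trem3, Kctd14, Mcemp1 and Chil3, a list that holds genes of monocytes next to genes of type 1 dendritic cells. The genes most in deficit were Vsig4, Folr2, C1qc, Lyve1, Cbr2, Stab1, Ltc4s, Syngr1, Fcna and Fxyd2, of which Vsig4, Folr2, Lyve1 and Stab1 are known from resident macrophages. Vsig4, a complement receptor, was at 1.4 and 1629 CPM in control and at 1.2 and 1302 CPM in MMS.

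Of the resident macrophage list, 17 of 19 compared genes were at least 2-fold lower than in C1q-positive cells in control and 15 of 18 in MMS, beside 18.6% and 16% of all genes. Of the class II list, 11 of 16 were at least 2-fold higher in control and 11 of 16 in MMS, beside 12.9% and 13.2%. Of the classical list, 10 of 18 were at least 2-fold higher in control with 4 lower, and 12 of 18 in MMS with 0 lower. The cell-cycle list was higher too, with 17 of 21 in control and 13 of 21 in MMS at least 2-fold.

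Against all other kept cells, the genes that led in both libraries were Rnase6, Sh2d1b1, Klra2, Itgal, Gpr35, Pmaip1, Jaml, Irf8, Cytip, Runx3, Plbd1 and Wdfy4. Rnase6, an antimicrobial ribonuclease, had 188 UMIs in 64 of 79 control cells and 69 in 27 of 53 MMS cells, and was 23.3-fold and 36.3-fold above the other cells. Cytip, which binds the adhesion regulator cytohesin, was seen in 78 of 79 control and 45 of 53 MMS cells, at 16.5-fold and 27.7-fold. Plbd1, a phospholipase of myeloid cells, was seen in 75 and 49 cells, at 535 and 404 CPM. Wdfy4, which type 1 dendritic cells need for cross-presentation, was seen in 61 and 29 cells.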

How the data were processed

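Single-cell RNA of synovium was measured by 10x Genomics in 2 libraries. The deposited matrices hold whole-number UMI counts per gene and barcode, not normalized; the Cell Ranger version is 5.0.0 per the file headers but 2.0.0 per the submitters' processing notes, which give mm10 as build. The cells passing the gate, the 22 gene lists, the markers and the division into sides were chosen with earlier results of these data known. The libraries share 6 barcodes, 4 among kept cells and 0 among gated cells. Doublets were called (scrublet in scanpy 1.11.5, expected rate 0.06) but not removed: 184 of 7075 control and 106 of 3871 MMS cells.

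UMIs were summed over gated cells per library and scaled to CPM. Genes at 0 in a library took 3 counts, so their ratios rest on that floor and their intervals are open-ended. Genes with at least 10 UMIs were compared; gate genes were left out of counts. The 24 genes named had at least 30 UMIs where higher, in at least 5% of cells there, and a level of at least 0.5 times that over all kept cells; the 12 highest and 12 lowest ratios were taken, apart from mitochondrial, ribosomal protein, haemoglobin and sex-linked genes and Gm and Rik models. Other genes are list members and cluster leaders. Clustering used 2000 variable genes, 20 components, 15 neighbours and Leiden resolution 1.0, with 0.5 as alternative. Gene coordinates come from GENCODE M21 (GRCm38). The scripts were tested on simulated counts. Alternatives covered the filters, the gate, scaling and weighting. Some genes of the lists are counted but not reported here by name.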

Additional observations from a re-analysis of the deposited data

How the results depend on the processing

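The number of genes at least 2-fold higher in MMS was 388 with at least 50 UMIs per gene and 2948 with no filter beyond 1 UMI, and the number lower was 321 with at least 50 UMIs and 479 on the Ly6c2-Plac8 side. The share of gated cells in MMS minus that in control was 0.80 points on the Ly6c2-Plac8 side, -0.55 on the Ccr2 side and -1.66 with no condition on Cd209a. The classical list's median log2 ratio was 0.80 on the Ly6c2-Plac8 side, 0.40 on the Ccr2 side and 3.23 with no condition on Cd209a, and that of pattern recognition was 0.29 on the Ly6c2-Plac8 side. The alternatively activated list's median was -0.63 on the Ly6c2-Plac8 side, -0.34 on the Ccr2 side, -0.95 with cells weighted equally, -0.91 with the gate applied at 5000 UMIs per cell and -0.63 with no condition on Cd209a.

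For a list, the interval used here runs from the median of its genes' lower bounds to the median of their upper bounds. It leaves out the spread between genes and is not an interval of the list's median. Among the lists whose interval over all gated cells lay on 1 side of 0, some medians turned in sign on the Ccr2 side. These were class II (0.058), complement (-0.42), glycolysis (-0.0063) and interleukin-1 (-0.035), and the genes Hbegf (-0.34) and Igfbp5 (-1.29) turned too. By the same criterion Fc receptors turned to -0.049 on the Ly6c2-Plac8 side, complement to -0.018 with the gate at 5000 UMIs, and Igfbp5 to -1.10 without the cells of high fibroblast or erythroid content. Lists whose interval held 0 also changed sign: on the Ccr2 side chemokines (1.07), growth factors (-0.73), cell cycle (0.96), interferon (-0.17), housekeeping (-0.15) and stress (-0.91), and on the Ly6c2-Plac8 side chemokines (0.88), non-classical (-0.89), interferon (-1.80), transcription factors (-0.15), housekeeping (-0.026) and osteoclast (-0.0038). The cause was not tested. The other 94 values were of the share, the 2 gene counts and the classical, class II, pattern recognition and alternatively activated lists. They stayed within the interval of the reported value, as defined above for lists, or, for gene counts, within 1.5 times it. The sides, the gate with no condition on Cd209a, the removal of cells of high fibroblast or erythroid content and the lower Leiden resolution were chosen after seeing the data.

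At the lower Leiden resolution of 0.5 there were 3 clusters, of 41 control and 6 MMS, 23 and 7, and 15 and 40 cells. No paired analysis was possible because there is 1 library per group. With 79 and 53 cells, 0 cells seen still allow a share of up to 4.56% of control and 6.72% of MMS gated cells (exact upper bounds), and the intervals of genes with few UMIs are wide.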
